A study of Mus musculus with 14 samples.

Results

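In a liver expression table, 10 rows read out cell division and its brake: Mki67, Top2a, Cdk1, Ccna2, Ccnb1, Ccnd1, Ccne1, Ccne2, Pcna and Cdkn1a. They were found by their gene symbol, each symbol had a single row, and together they are 10 of the 22850 rows in the table. The RNA of 14 libraries, called livers below, came from livers of C57BL/6N mice whose diets began at 7 weeks of age. Fat supplied 40% of the energy of the high-fat Western diet, called HFWD. Of the libraries, 5 were from this diet together with sugar water (42 g/L, 55% fructose and 45% sucrose, called HFWD+sugar) and 5 from this diet without it. The other 4 were from chow, at 12% of energy from fat. The labels used here do not give the sex of the mice or the time on the diet. They also do not say outright that each library came from its own animal. The p-values set differences between diets against the spread of libraries within diets, with libraries treated as independent. If libraries shared an animal, these p-values would be too small.

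A dividing cell passes its checkpoints by making cyclins in turn, each of which switches on a cyclin-dependent kinase. D cyclins act in G1, E cyclins at the start of DNA synthesis, cyclin A2 through S phase and G2, and cyclin B1 with Cdk1 at entry into mitosis. The protein encoded by Cdkn1a, p21, inhibits these kinases and is a classical target of the tumour suppressor p53. Hepatocytes of an adult liver are mostly out of the cycle, and they can return to it after loss of tissue or injury. Livers of mice on Western diets are studied as a model of fatty liver disease, and the series asks what liquid sugar adds.

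The genes of the last steps of the cycle have a shared promoter plan, CCAAT boxes followed by a cell cycle homology region (CHR), and Cdkn1a has a p53 element instead. The windows below are shown because they let that difference be seen in the letters. They run from 250 bases before to 50 bases after a transcript start, 5′ to 3′ on the strand of the gene, and come from RefSeq on GRCm38.p6. Capitals mark the motifs that were searched on both strands. These were CCAAT, the CHR as TTTGAA or TTTAAA, an E2F element as TTTCCCGC, TTTGGCGC, TTTCGCGC or TTTGCCGC, the p53 half-site, TATAAA and a pair of CATG cores with any 6 bases between them.
Mki67, chr7:135716330-135716629, minus strand: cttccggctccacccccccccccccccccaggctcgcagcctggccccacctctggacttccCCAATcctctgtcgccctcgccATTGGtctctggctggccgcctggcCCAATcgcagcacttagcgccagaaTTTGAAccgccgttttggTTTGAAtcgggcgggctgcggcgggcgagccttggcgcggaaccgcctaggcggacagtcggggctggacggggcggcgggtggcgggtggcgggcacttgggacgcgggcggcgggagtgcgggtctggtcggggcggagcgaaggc
Top2a, chr11:99024140-99024439, minus strand: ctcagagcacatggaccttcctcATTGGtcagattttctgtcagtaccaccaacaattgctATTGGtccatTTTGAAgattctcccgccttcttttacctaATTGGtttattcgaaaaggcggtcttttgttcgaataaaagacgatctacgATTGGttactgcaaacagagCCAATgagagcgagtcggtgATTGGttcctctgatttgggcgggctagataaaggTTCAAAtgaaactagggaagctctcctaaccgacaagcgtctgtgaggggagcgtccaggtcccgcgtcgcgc
Cdk1, chr10:69352863-69353162, minus strand: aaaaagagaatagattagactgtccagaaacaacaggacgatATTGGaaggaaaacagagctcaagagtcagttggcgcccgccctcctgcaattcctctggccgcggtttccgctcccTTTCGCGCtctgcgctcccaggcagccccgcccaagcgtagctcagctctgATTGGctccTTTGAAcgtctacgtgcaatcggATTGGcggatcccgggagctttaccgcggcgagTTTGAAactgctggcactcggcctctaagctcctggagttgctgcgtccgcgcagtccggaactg
Ccnb1, chr13:100786437-100786736, minus strand: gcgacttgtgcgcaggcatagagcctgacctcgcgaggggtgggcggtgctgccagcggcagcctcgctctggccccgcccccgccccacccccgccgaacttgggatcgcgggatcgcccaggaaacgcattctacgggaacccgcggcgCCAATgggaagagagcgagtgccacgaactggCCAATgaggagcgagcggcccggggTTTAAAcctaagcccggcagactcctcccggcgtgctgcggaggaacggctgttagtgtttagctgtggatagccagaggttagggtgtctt
Cdkn1a, chr17:29090729-29091028, plus strand: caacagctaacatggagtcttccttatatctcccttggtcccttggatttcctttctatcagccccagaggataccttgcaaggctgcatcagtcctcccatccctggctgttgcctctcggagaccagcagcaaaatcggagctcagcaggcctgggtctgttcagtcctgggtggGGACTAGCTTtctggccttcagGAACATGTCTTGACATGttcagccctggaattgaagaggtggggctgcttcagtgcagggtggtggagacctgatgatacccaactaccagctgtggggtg

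Windows were found for 7 of the 10 members. The Mki67 window held 3 CCAAT boxes and 2 CHR elements, the Top2a window 6 and 2, the Cdk1 window 3 and 2, and the Ccnb1 window 2 and 1. Of the members outside mitosis, Pcna held a CCAAT box at -87 and Ccne1 a CHR, TTTAAA, at -15. Cdk1 also held an E2F element, TTTCGCGC, at -131 from the start, and no member window held TATAAA. Among 32851 mouse windows of the same length, 37.4% held a CCAAT box, 27.6% a CHR, 2.26% an E2F element, 8.36% a p53 half-site and 13.6% TATAAA. The Cdkn1a window held 2 p53 half-sites, at -73 and -51, and 0 CCAAT boxes or CHR elements. From -48 the second of them overlaps the pair of CATG cores, a pattern chosen after the window was seen and held by 0.712% of all windows. This window belongs to the first of 2 Cdkn1a starts, 2.79 kb before the other, and the window of the other start held none of these motifs. A match describes the letters only.

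The members fell into 2 tiers by level. Per kb of exon and averaged over the 14 livers, the Pcna row stood at 3733 units, Ccne2 at 613, Ccna2 at 299.6 and Ccnd1 at 251, whereas Cdkn1a stood at 5.77, Mki67 at 0.777, Ccne1 at 0.643, Cdk1 at 0.506, Top2a at 0.368 and Ccnb1 at 0.237. On the same scale the rows of the hepatocyte genes Alb and Fabp1 stood at 1486 and 2395. The Pcna row, for the sliding clamp that holds DNA polymerase on its template, lay above both. Before division by exon length, the Cd8a row averaged 15488 units and the Tns4 row 70490.5, beside 3036 for Alb. Whether the level of such rows, or of the Pcna row, is that of their own mRNA was not tested. All 8 hepatocyte markers looked up were above the lowest value of the table in every liver. The lowest value was 1 in each library, a floor that 36.7% to 47.1% of the rows took. Low values moved in steps of 2.47 to 6.85 units, taken as the worth of 1 read, which puts chow 4 at about 3.77 M reads, HFWD 1 at 5.84 M and the deepest library at 9.34 M. Rows under about 10 units therefore rest on a few reads, and 3 reads came to 20.6 units in chow 4. Such a library can show a low row as the floor where a deeper one would not.

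**Figure D1:**
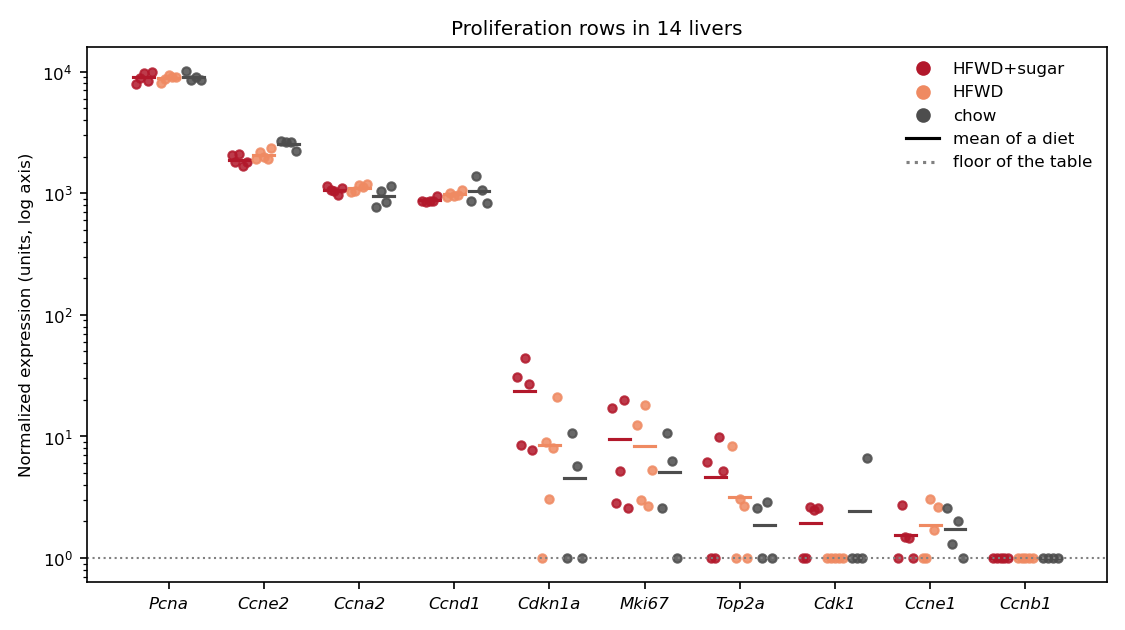
Normalized expression of the 10 member rows in each liver (units, log axis; points are livers, short lines are means of a diet, the dotted line is the floor of 1). Pcna, Ccne2, Ccna2 and Ccnd1 lie at 774 units or more in every liver, and the other 6 rows lie between the floor and 44.3 units.

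Differences were tested with limma on log2(value + 1) over the 14770 rows above the floor in at least 4 livers, with Benjamini-Hochberg adjustment over all of them and a threshold of 0.05. Of the 10 members 9 passed that filter, and Ccnb1 did not. In HFWD+sugar against chow 1 member was called, Ccne2, which was lower, where 9.05% of all tested rows were called. In HFWD against chow 0 members were called, against 3.38% of all rows. In HFWD+sugar against HFWD 0 members and 0 of all rows were called (limma). At an unadjusted p under 0.05 the members past it were 2, 2 and 1 of 9 in that order of comparisons, where the shares of all rows were 24.8%, 16.2% and 8.62%. The median difference of all tested rows was 0.12, 0.04 and 0.05 on the log2 scale. The comparisons with chow share the chow livers.

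**Figure D2:**
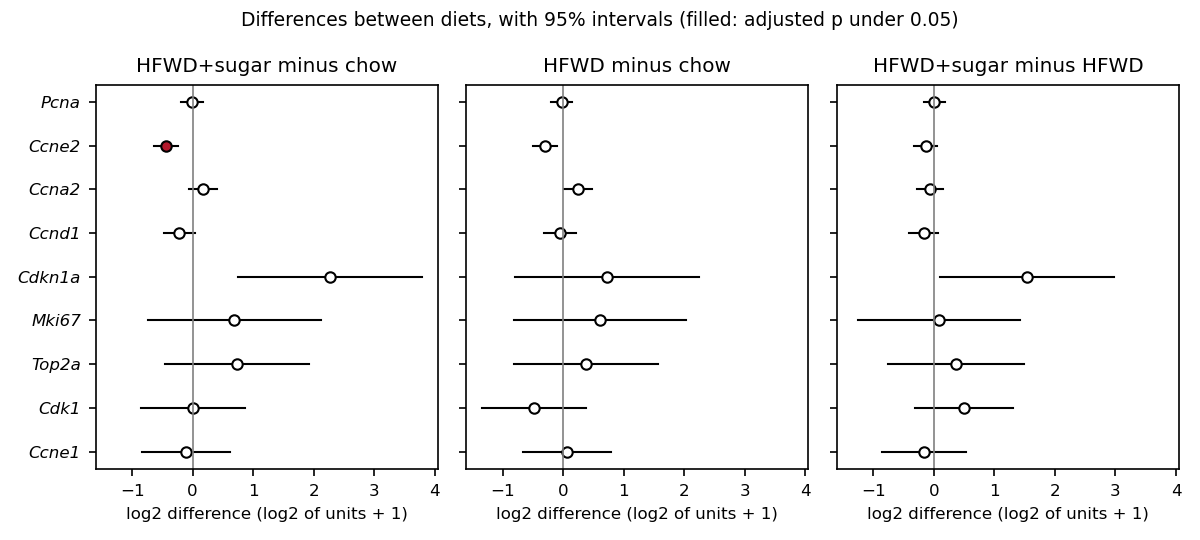
Log2 differences of the 9 tested members in the 3 comparisons (points, with 95% intervals; filled where the adjusted p is under 0.05). Ccne2 in HFWD+sugar minus chow, at -0.44, is the only filled point, and the intervals of Cdkn1a, Mki67 and Top2a are the widest.

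Ccne2 encodes cyclin E2, which with Cdk2 starts DNA synthesis, and its row was the member that changed. It read 2050, 1814, 2090, 1666 and 1795 units in HFWD+sugar livers 1 to 5, 1927, 2164, 1989, 1902 and 2357 units in HFWD livers, and 2694, 2641, 2658 and 2238 units in chow livers. The highest HFWD+sugar liver lay below the lowest chow liver, chow 4, which itself lay apart from the other chow livers. Non-overlap in this direction was found for 3.75% of all tested rows. Ccne2 averaged 1883 ± 181 units in HFWD+sugar (SD, n = 5), against 2558 ± 214 units in chow (SD, n = 4), which is 26.4% lower. The log2 difference was -0.44 ± 0.09 (SE; limma, adjusted p = 0.00836), with a 95% interval from -0.64 to -0.24. HFWD livers averaged 2068 ± 191 units, and the difference from chow, -0.31 ± 0.09, was not called (limma, adjusted p = 0.0844). HFWD+sugar and HFWD livers overlapped, and their difference of -0.14 was not called (limma, adjusted p = 0.664). A step from HFWD alone to HFWD+sugar was therefore not shown for this cyclin.

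The other E cyclin, Ccne1, acts with the same kinase but was close to unmeasured. Its row lay between 1 and 2.74 units in HFWD+sugar, between 1 and 3.04 in HFWD and between 1 and 2.56 in chow, at most 1 read in any liver. No difference was detectable at this depth.

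Ccnd1 encodes cyclin D1, the G1 cyclin that growth signals raise. It read 861, 846, 857, 861 and 950 units in HFWD+sugar livers, 939, 1003, 946, 961 and 1070 units in HFWD livers, and 868, 1399, 1066 and 825 units in chow livers. The chow livers spread over both other diets. HFWD+sugar averaged 875 ± 42.4 units (SD, n = 5) and chow 1040 ± 262 units (SD, n = 4), a log2 difference of -0.22 ± 0.12 that was not called (limma, adjusted p = 0.290). The differences of HFWD from chow (-0.05, limma, adjusted p = 0.896) and of HFWD+sugar from HFWD (-0.17, limma, adjusted p = 0.675) were not called either.

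The row of Pcna, whose clamp is loaded in S phase and during repair, was high in every liver. It read from 7933 to 9854 units in HFWD+sugar with a median of 8879, from 8102 to 9434 in HFWD with a median of 9103, and from 8567 to 10058 in chow. The 3 ranges overlapped over most of their length. The log2 difference of HFWD+sugar from chow was -0.01 (limma, adjusted p = 0.939), with a 95% interval from -0.19 to 0.16. That of HFWD from chow was -0.02 (limma, adjusted p = 0.928).

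Ccna2 encodes cyclin A2, the partner of Cdk2 in S phase and of Cdk1 in G2. It read 1142, 1058, 1047, 975 and 1104 units in HFWD+sugar livers, 1019, 1048, 1177, 1133 and 1196 units in HFWD livers, and 774, 1053, 850 and 1143 units in chow livers. Chow 1 and chow 3 lay below all livers of both Western diets, and chow 2 and chow 4 lay among them. The log2 differences from chow were 0.17 ± 0.11 for HFWD+sugar (SE; limma, adjusted p = 0.347) and 0.24 ± 0.11 for HFWD (SE; limma, adjusted p = 0.288), and neither was called. Limma's array weights gave chow 2 and chow 4 the lowest weights, 0.444 and 0.349, and with those weights both differences were called (limma, adjusted p = 0.0478 and 0.0359). They were also called with both of these livers left out (limma, adjusted p = 0.0195 and 0.0119). That leaves only chow 1 and chow 3, which lay below all other livers, so this result follows from the choice of livers. With libraries centred on their median neither was called, at -0.04 for HFWD+sugar and 0.17 for HFWD (limma, adjusted p = 0.901 and 0.621).

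The 4 mitotic members, Mki67, Top2a, Cdk1 and Ccnb1, were close to the floor. Mki67, whose product Ki-67 coats mitotic chromosomes and is the usual stain for cycling cells, read 17.1, 2.82, 5.22, 19.8 and 2.60 units in HFWD+sugar livers, 12.5, 3.02, 18.2, 2.68 and 5.28 units in HFWD livers, and 2.56, 10.6, 6.25 and 1 units in chow livers. The highest value stood for 8 reads. Each diet had livers near the floor and livers above 10 units, and the ranges overlapped. The log2 differences from chow were 0.69 ± 0.68 for HFWD+sugar (SE; limma, adjusted p = 0.568) and 0.60 for HFWD (limma, adjusted p = 0.733).

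Top2a encodes topoisomerase II alpha, which untangles sister chromatids. It read 6.22, 1, 1, 9.87 and 5.21 units in HFWD+sugar livers, 8.31, 1, 3.04, 2.68 and 1 units in HFWD livers, and 2.56, 1, 2.88 and 1 units in chow livers. HFWD+sugar 4 was the highest liver for both Top2a and Mki67, at about 4 and 8 reads. The differences from chow, 0.74 ± 0.56 for HFWD+sugar and 0.37 for HFWD, were not called (limma, adjusted p = 0.449 and 0.816).

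Cdk1, the mitotic kinase, was above the floor in 4 livers, HFWD+sugar 3, 4 and 5 and chow 4, with no more than 1 read in any. Its partner Ccnb1 stood at the floor of 1 in all 14 livers. A value at the floor says that the row drew no or almost no reads here. How reads with several matches were counted is not given in the sources used here, and the mouse genome holds processed copies of Ccnb1. In bulk liver RNA, fewer cycling cells and less RNA per cycling cell cannot be told apart.

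Cdkn1a, the p21 inhibitor, was the low row with the widest spread between diets. It read 31.1, 8.46, 44.3, 27.2 and 7.81 units in HFWD+sugar livers, 1, 9.06, 3.04, 8.04 and 21.1 units in HFWD livers, and 1, 10.6, 5.76 and 1 units in chow livers. In HFWD+sugar livers these values stood for 10, 3, 17, 11 and 3 reads, in HFWD livers for 0, 3, 1, 3 and 8, and in chow livers for 0, 4, 2 and 0. Chow 1 and chow 4 thus stood at the floor, and 1 read was worth 6.85 units in chow 4. HFWD+sugar livers 1, 3 and 4 lay above every other liver of the study, and livers 2 and 5 lay within the range of chow. Cdkn1a averaged 23.8 ± 15.6 units in HFWD+sugar (SD, n = 5) and 4.59 ± 4.60 units in chow (SD, n = 4), a log2 difference of 2.27 ± 0.72 that just missed the threshold (limma, adjusted p = 0.0584), with a 95% interval from 0.74 to 3.79. HFWD averaged 8.45 ± 7.84 units, 0.72 ± 0.72 above chow on the log2 scale (SE; limma, adjusted p = 0.691). HFWD+sugar was 1.54 ± 0.68 above HFWD (SE; limma, adjusted p = 0.570), and this was the member with an unadjusted p under 0.05 in that comparison. Over 23 alternatives the log2 difference of HFWD+sugar from chow ran from 1.12 to 2.76 and its adjusted p (limma) from 0.0286 to 0.166. The adjusted p was under the threshold in 4, with array weights and without chow 2, HFWD 1 or HFWD 5.

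Genes near a member, or overlapping it on the other strand, were read beside it. Earlier results of these data showed that a row can carry a neighbour's level, and the strand setting of the counting is not given. The rows taken were the highest within 200 kb on each strand, any overlapping row on the other strand, and Srsf3 near Cdkn1a. Of the 10 members 3 overlap a row on the other strand. On mm9 the Ccne2 gene (chr4:11118498-11131926, plus strand) overlaps Ints8, a subunit of the Integrator complex, over 5622 bases, of which 609 are exonic in both genes. The Ints8 row averaged 21877 ± 10647 units in HFWD+sugar and 18625 ± 5616 units in chow, and it was not called (limma, adjusted p = 0.729). Ccnd1 (chr7:152115836-152125774, minus strand) overlaps Oraov1 over 818 bases, all of them exonic in both, and the Oraov1 row averaged 1412 units, above that of Ccnd1, and was not called either (limma, adjusted p = 0.959). Ccna2 (chr3:36463788-36471072, minus strand) overlaps Exosc9, a subunit of the RNA exosome, over 864 bases, 512 of them exonic. The Exosc9 row averaged 198 units and was not called in HFWD+sugar against chow (limma, adjusted p = 0.604).

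Some of these rows changed between diets. The row 1810062G17Rik, 82.9 kb from Ccna2 on the other strand, rose to 8247 ± 1244 units in HFWD+sugar livers, against 4320 ± 707 units in chow livers, by 0.93 on the log2 scale (limma, adjusted p = 0.00225). Ptpre, a receptor-type tyrosine phosphatase 3.49 kb from Mki67 on the other strand, read 699, 453, 414, 972 and 329 units in HFWD+sugar livers, 245, 480, 321, 240 and 248 units in HFWD livers, and 259, 281, 254 and 212 units in chow livers. All HFWD+sugar livers lay above all chow livers, as was so for 5.96% of all rows. HFWD+sugar 1 and 4, the highest for Mki67 in their diet, were also the highest for Ptpre, and chow 2 was highest for both. In HFWD this was not so: Mki67 was highest in livers 3 and 1, and Ptpre in liver 2, where Mki67 read 3.02 units. Ptpre rose by 1.08 ± 0.27 on the log2 scale in HFWD+sugar against chow (SE; limma, adjusted p = 0.0182), a call lost without the filter on low rows, without the variance trend (limma, adjusted p = 0.0801 and 0.0559) and with chow 2 and chow 4 both left out (limma, adjusted p = 0.0590).

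Slc23a2, a vitamin C transporter 104 kb from Pcna on the same strand, rose to 43.8 ± 15.9 units in HFWD+sugar livers, against 12.4 ± 2.72 units in chow livers (limma, adjusted p = 0.00509). Anxa5, a phospholipid-binding annexin 89.0 kb from Ccna2 on the same strand, rose to 165 ± 45.8 units in HFWD+sugar, against 69.3 ± 16.0 units in chow (limma, adjusted p = 0.0166), a call lost without the filter on low rows and without chow 3 or HFWD+sugar 4. The row 1600014C10Rik, 75.7 kb from Ccne1 on the other strand, was called higher as well (limma, adjusted p = 0.0438), and that held in 13 of 24 alternatives. The highest opposite-strand rows near Top2a (Igfbp4), Cdk1 (Rhobtb1), Ccnb1 (Ccdc125), Pcna (Cds2) and Cdkn1a (Ppil1) were not called in either comparison with chow, nor were the highest same-strand rows near Cdk1 (A930033H14Rik), Ccnb1 (Rad17), Ccnd1 (Ano1), Ccne1 (C80913) and Cdkn1a (Kctd20). Tns4, 41.5 kb from Top2a on the same strand, averaged 70490.5 units over the 14 livers beside the 3.34 units of Top2a, and was not called. Trp53inp1, the highest same-strand row near Ccne2, is described with the p53 targets.

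Srsf3, a splicing factor gene whose row ends 47.6 kb before Cdkn1a on the same strand, gave the largest of these differences. It read 145, 203, 187, 165 and 288 units in HFWD+sugar livers, 174, 121, 325, 345 and 197 units in HFWD livers, and 24.4, 37.2, 31.7 and 1 units in chow livers. Each liver on a Western diet lay above each chow liver, as was so for 5.96% of all rows in HFWD+sugar and 3.84% in HFWD. Srsf3 rose by 3.61 ± 0.63 in HFWD+sugar and by 3.77 ± 0.63 in HFWD on the log2 scale (SE; limma, adjusted p = 0.00229 and 0.00232), and both calls held in 24 of 24 alternatives. In HFWD livers, then, Srsf3 lay above all chow livers at a mean of 233 ± 97.7 units, beside 198 ± 55.2 units in HFWD+sugar, while Cdkn1a overlapped chow. Whether reads of a nearby gene entered a member row was not tested.

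**Figure D3:**
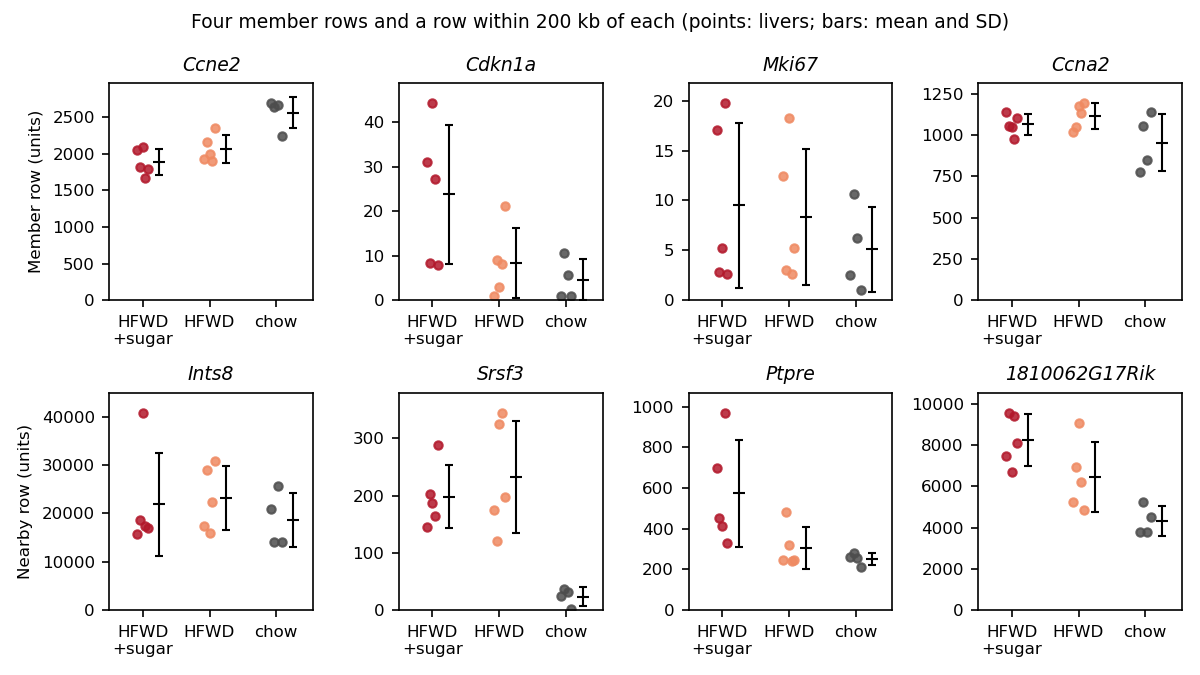
Values of the member rows Ccne2, Cdkn1a, Mki67 and Ccna2 in each liver (top, units) and of a row within 200 kb of each, Ints8, Srsf3, Ptpre and 1810062G17Rik (bottom, units); points are livers and bars are the mean and SD of a diet. Ccne2 is lower in HFWD+sugar than in chow while Ints8 overlaps between diets, and Srsf3 is above 100 units in every liver on a Western diet.

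The rows most like the members over the 14 livers were taken by Pearson's r of the log2 values among the 7385 tested rows whose mean reached the median, as a description. Ccne2 was most like Slc2a12, a glucose transporter of the GLUT family (r = 0.97), Pde7a, a cyclic AMP phosphodiesterase (r = 0.96), and Xrcc6, which encodes the Ku70 subunit that binds broken DNA ends (r = 0.95). They were picked for this likeness over the same livers, so their differences between diets follow from the choice and are given without a test. Xrcc6 averaged 1821 ± 200 units in HFWD+sugar and 2445 ± 172 units in chow, and the log2 differences of Slc2a12 and Pde7a were -0.56 and -0.30. Ccnd1 was most like Nkain4, Gla and Spns2 (r = 0.95, 0.95 and 0.93), Ccna2 most like Fam18a, Mtap7d1 and A130010J15Rik (r = 0.91, 0.86 and 0.86), and Pcna most like Gm15800, Zbtb2 and Fastk (r = 0.81, 0.77 and 0.76). Values in a library share its depth and scaling, which bears on every such r.

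The wider cell cycle was read through lists of genes that do not hold the members. Of 34 tested rows of DNA replication, 3 rose and 0 fell in HFWD+sugar against chow, where 5.67% of all rows rose, with a median difference of 0.07 beside 0.12 for all rows. Rpa2, a subunit of the single-strand binding protein, was the firmest of them, at 478 ± 84.6 units in HFWD+sugar and 307 ± 36.6 units in chow (log2 difference 0.63, limma, adjusted p = 0.0120), and the call was lost with libraries centred on their median (limma, adjusted p = 0.0735). Mcm4, of the replicative helicase, stood at 323 ± 50.0 units in HFWD+sugar and 215 ± 61.9 units in chow, and its call held in 12 of 24 alternatives. Prim1, of the primase, was at the floor in all chow livers, and its call held in 6 of 23 alternatives. In HFWD against chow 0 of the 34 were called, with 3 at an unadjusted p under 0.05, where 16.2% of all rows were, and a median of 0.10 beside 0.04.

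The mitosis list held rows of very different levels. Of its 40 rows, 25 averaged under 10 units, 13 did not pass the filter, and Melk, Ndc80 and Cdc25c stood at the floor in all livers. Its highest row, Cdca3, averaged 18179 units, and 9 rows averaged 100 units or more. The highest row of the DNA replication list, Rfc4, averaged 15473 units. That of the G1 cyclins, kinases and pocket proteins, Skp2, averaged 19290 units, and Alb averaged 3036. Whether such levels are those of the genes' own mRNA was not tested, so the counts and medians of these lists describe rows of the table. Spc24, a kinetochore subunit, was the 1 row of 27 called in HFWD+sugar against chow, where 5.67% of all rows rose, at 86.5 ± 41.4 units in HFWD+sugar and 37.5 ± 22.4 units in chow (log2 difference 1.25, limma, adjusted p = 0.0399), and that call held in 9 of 24 alternatives. The median difference of the list was 0.21 beside 0.12 for all rows. In HFWD against chow 0 were called, with 2 of 27 at an unadjusted p under 0.05, beside 16.2% of all rows, and a median of 0.16.

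Among 23 tested rows of G1 cyclins, kinases and pocket proteins, Rbl2 was the 1 called row in each comparison with chow. Of all rows 5.67% rose in HFWD+sugar and 2.44% in HFWD. Rbl2 encodes p130, a relative of the retinoblastoma protein that represses cell cycle genes in resting cells as part of the DREAM complex. It read 1151, 1185, 1264, 1177 and 1283 units in HFWD+sugar livers, 1161, 1127, 1185, 1231 and 1087 units in HFWD livers, and 803, 819, 899 and 1007 units in chow livers. All livers on the Western diets lay above all chow livers, as was so for 5.96% of all rows in HFWD+sugar and 3.84% in HFWD. Rbl2 rose by 0.46 in HFWD+sugar and by 0.40 in HFWD on the log2 scale (limma, adjusted p = 0.00339 and 0.0150), calls that held in 23 and 19 of 24 alternatives. Of the other kinase inhibitors, Cdkn2a and Cdkn2d were at the floor in all livers. Of the 4 tested 0 were called in either comparison with chow, beside 9.05% and 3.38% of all rows. At an unadjusted p under 0.05 there were 0 too, beside 24.8% and 16.2%. In HFWD+sugar against chow 1 of 14 rows of growth receptors and ligands was called, where 3.38% of all rows fell. This was Egfr, the receptor for epidermal growth factor in hepatocytes. It fell to 1952 ± 674 units in HFWD+sugar, against 4510 ± 2237 units in chow (log2 difference -1.11, limma, adjusted p = 0.0253), with overlapping livers, and the call held in 17 of 24 alternatives.

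The p53 targets were read because Cdkn1a is one of them. All 28 rows were tested, and in HFWD+sugar against chow 8 rose and 1 fell, with a median difference of 0.80 beside 0.12 for all rows, of which 5.67% rose. In HFWD against chow 3 rose and 0 fell, with a median of 0.41 beside 0.04, and 2.44% of all rows rose. The count in HFWD+sugar was not stable, at 2 to 8 with single livers left out and 10 with array weights. It was 2 with quantile normalization or with libraries centred on their median. With single livers left out, the count of 2 was the one without HFWD+sugar 4. The lists were chosen with results of these data known, so the counts are a description.

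Plk2, a polo-like kinase induced by p53, was near the floor in chow. It read 15.5, 11.3, 13.0, 12.4 and 21.4 units in HFWD+sugar livers, 8.26, 6.04, 10.6, 19.99 and 15.8 units in HFWD livers, and 2.56, 2.65, 1 and 1 units in chow livers. Every liver on a Western diet lay above every chow liver, on a few reads each, as was so for 5.96% of all rows in HFWD+sugar and 3.84% in HFWD. Plk2 rose by 2.52 in HFWD+sugar and by 2.18 in HFWD on the log2 scale (limma, adjusted p = 0.00107 and 0.00463), and both calls held in 23 of 23 alternatives.

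Ccng1, cyclin G1, is a p53 target that binds no cell cycle kinase in the way of the cyclins above. It averaged 2650 ± 94.8 units in HFWD+sugar and 2793 ± 184 units in HFWD, against 1924 ± 227 units in chow, and all chow livers lay lowest. It rose by 0.47 and by 0.54 on the log2 scale (limma, adjusted p = 0.00322 and 0.00149). With libraries centred on their median the call in HFWD+sugar was lost (limma, adjusted p = 0.155), and that in HFWD held in 24 of 24 alternatives. Ei24, a membrane protein of the endoplasmic reticulum, rose to 139 ± 23.6 units in HFWD+sugar, against 77.7 ± 13.8 units in chow (limma, adjusted p = 0.0221), and the call held in 20 of 24 alternatives. Sertad1, a partner of Cdk4, rose to 121 ± 16.4 units in HFWD+sugar and 127 ± 23.9 units in HFWD, against 68.6 ± 27.3 units in chow (limma, adjusted p = 0.0357 and 0.0451), calls that held in 12 and 6 of 24 alternatives. Trp53inp1, which lies 16.97 kb from Ccne2 on the same strand, rose to 332 ± 58.5 units in HFWD+sugar, against 217 ± 41.9 units in chow (limma, adjusted p = 0.0351), the opposite direction to Ccne2, and the call held in 11 of 24 alternatives. Gadd45a, Perp and Eda2r also rose in HFWD+sugar, and Plk3 fell. The calls of Gadd45a, Perp and Eda2r were lost without the filter on low rows, with quantile normalization and without the variance trend. Those of Gadd45a and Perp were also lost with libraries centred on their median. Mdm2, the ubiquitin ligase that p53 induces to limit itself, averaged 209 ± 45.1 units in HFWD+sugar and 202 ± 35.0 units in chow (log2 difference 0.04, limma, adjusted p = 0.919). In HFWD+sugar against HFWD 0 rows of any of the 6 lists were called (limma). At an unadjusted p under 0.05 there were 3 of 28 p53 targets, 4 of 34 rows of DNA replication, 4 of 27 of mitosis and 1 of 4 kinase inhibitors, beside 8.62% of all rows.

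**Figure D4:**
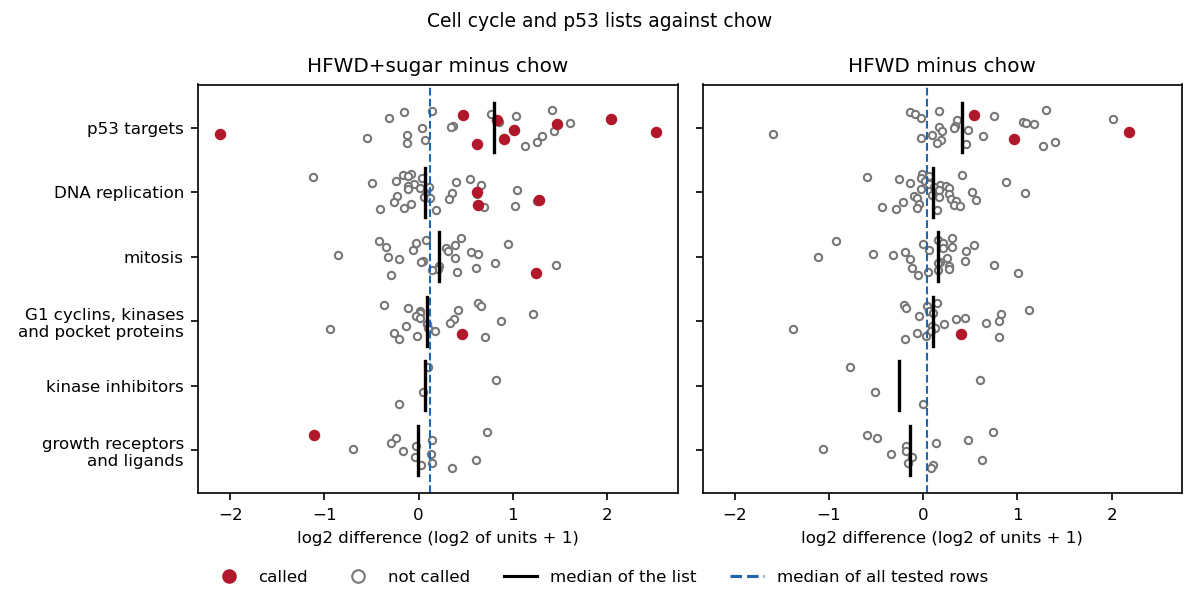
Log2 differences from chow of each tested row in 6 gene lists, for HFWD+sugar (left) and HFWD (right); filled points were called, black lines are list medians and the dashed line is the median of all tested rows. The p53 targets have the most called rows, 8 higher and 1 lower in HFWD+sugar, and the lists of DNA replication and mitosis lie around the median of all rows.

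Markers of other cells in the liver were summed because macrophages, endothelial cells and stellate cells can also divide. The 11 macrophage and Kupffer cell rows summed to 2307 to 2756 units in HFWD+sugar, 2410 to 2862 units in HFWD and 2010 to 3007 units in chow. Csf1r averaged 2011 units, Vsig4 402 and each other row 68.1 or less, so the sum mostly follows Csf1r. Of the 11 rows 2, Cd5l and C1qa, were higher in HFWD+sugar than in chow, where 5.67% of all rows were higher. The 8 stellate cell rows summed to 352 to 526 units in HFWD+sugar, 280 to 432 units in HFWD and 270 to 390 units in chow. Acta2 and Reln averaged 198 and 106 units, and each other stellate row 31.6 or less. Of the 8 rows 1, Col3a1, was higher in HFWD+sugar than in chow. Of 4 tested T and NK cell rows Cd8a was lower in HFWD+sugar than in chow, and of 8 hepatocyte rows Cps1 was. In that comparison 3.38% of all rows were lower. The Cd8a row averaged 15488 units, beside 20.2 for Cd3d, 1.72 for Cd4 and 1.24 for Cd3g, the other tested rows. Cd3e, Nkg7 and Klrb1c stood at the floor in all livers. Whether the Cd8a row reports T cells was not tested. The endothelial, B and plasma cell, neutrophil, cholangiocyte and erythroid lists had 0 rows called in HFWD+sugar against chow (limma), with 1 of 1 neutrophil and 3 of 9 erythroid rows at an unadjusted p under 0.05, beside 24.8% of all rows. The part of these cells in the member rows was not tested.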

How the data were processed

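Liver RNA was depleted of ribosomal RNA and sequenced in 14 libraries, per the labels' protocols. The submitters' processing notes name FastQC, TopHat2 2.0, SAMtools and build mm9. How reads were counted, with what strand setting, and how values were scaled is not given in the sources used here. Values are a normalized signal per gene, deposited by the authors on a linear scale with a floor of 1, and not counts, so no count-based test was run. Low values lay on steps of 1 read and on fractions of it: 54.5% to 65.0% were whole within 0.02 of a step.

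Groups follow the treatment label. With R 4.3.3, limma 3.58.1 and data.table (1.17.8), 1 model of 3 diet means was fitted to log2(value + 1) over 14770 rows above the floor in at least 4 livers, with a variance trend in eBayes, 2-sided tests and Benjamini-Hochberg adjustment at 0.05 without a minimum fold. The pseudocount understates changes of low rows. "Called", "rose" and "fell" refer to this threshold. The fit was tested on simulated data. Alternatives changed the pseudocount, filter, scaling, weights, variance model and livers, 24 per comparison.

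Named were the members, the highest row within 200 kb on each strand, overlapping rows, Srsf3, the 3 rows most like each member averaging 100 units or more, and up to 3 called rows with the smallest p per list. Other list rows, such as Mdm2, and cell type markers were named after their values were seen. Members and lists were chosen with earlier results of these data known. The coordinates of 22438 of 22850 rows, those of all 10 members among them, match the GENCODE mm9 annotation.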

Additional observations from a re-analysis of the deposited data

Results flagged for a closer look

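In 5 of 26 sets of livers of 1 diet, the highest or lowest liver lay apart from the others by more than Dixon's 95% critical value. For normally distributed values chance alone marks about 1 set in 20. That rate does not hold for rows of a few reads, where 1 read can set a liver apart. Ccne2 read 2238 units in chow 4, against 2641 to 2694 in the other chow livers. Ccnd1 read 950 units in HFWD+sugar 5, against 846 to 861 in the other livers of that diet. The remaining 3 rest on 1 or 2 reads: Top2a at 8.31 units in HFWD 1, where the other HFWD livers had 1 to 3.04, Cdk1 at 6.71 units in chow 4, where the other chow livers had 1, and Ccne1 at 2.74 units in HFWD+sugar 2, where the others had 1 to 1.49.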

How the results depend on the processing

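Ccne2 in HFWD+sugar against chow was called and lower in 24 of 24 alternatives, with log2 differences from -0.65 to -0.38 and adjusted p from 0.00185 to 0.0416. Over all members and comparisons 616 values were recomputed, 0 calls were lost, 11 were gained, and 35 uncalled values changed sign. The members called in HFWD+sugar against chow, 1 as reported, were 3 with array weights (Ccna2, Ccne2, Cdkn1a), 2 with chow 2 and chow 4 both left out (Ccna2, Ccne2) and 1 to 2 with single livers left out, Cdkn1a being the added row. In HFWD against chow, 0 as reported, they were 2 with array weights and 2 with chow 2 and chow 4 both left out (Ccna2 and Ccne2 each time), and 0 to 1 with single livers left out, Ccne2 without chow 4.

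Counts over all rows moved more. In HFWD+sugar against chow the 1336 called rows became 774 without a filter, 2174 with array weights, 745 without the variance trend, 768 with only the 2 diets fitted, and 679 (without HFWD+sugar 4) to 1768 (without chow 4) with single livers left out. In HFWD against chow the 499 became 309, 1021, 246 and 270 under the same settings, 275 with libraries centred on their median, 920 with chow 2 and chow 4 both left out, and 260 (without HFWD 4) to 1050 (without chow 4). In HFWD+sugar against HFWD the count was 0 to 1, the 1 without HFWD 1. The p53 targets higher in HFWD+sugar than in chow, 8 as reported, numbered 10 with array weights and 9 without a pseudocount. They numbered 3 without a filter, 2 with quantile normalization, 2 with median centring and 4 without the variance trend. With only the 2 diets fitted they were 5, and with single livers left out 2 to 8. Those higher in HFWD than in chow, 3 as reported, numbered 5 with array weights and 2 to 4 with single livers left out. The cause of these shifts was not tested.

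Centring libraries on their median moved the median difference of all rows in HFWD+sugar against chow to -0.09, from 0.12, and the share of called rows that were higher to 26.7%, beside 62.6% as reported. Ccne2 then differed by -0.65, Ccnd1 by -0.43 (limma, adjusted p = 0.0503), and Ccna2 changed sign, uncalled. No paired analysis was possible because the labels give no replicate numbers that the diets share. All values of Ccne1 and Cdk1 and most of Top2a lie below about 3 reads, which limits what can be seen of them at this depth.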
